A study of Saccharomyces cerevisiae with 36 samples.

Results

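The third of 12 positions in the yeast metabolic cycle was compared with the second, using 6 of 36 Affymetrix arrays. The arrays came from Saccharomyces cerevisiae in continuous culture, followed over 3 successive cycles with 1 array at each position of about 25 min. Position 2 was time intervals 2, 14 and 26, and position 3 was intervals 3, 15 and 27, so that each group held 3 arrays and each cycle gave 1 pair. No treatment separated the groups, and the strain and medium are not given in the sources used here. Successive cycles of a culture are not separate cultures, so p-values measure the spread between these arrays and cycles. Each value is a probe-set intensity in multiples of its array's median. Differences are log2 values of position 3 minus position 2, with a negative value where a gene was lower at position 3.

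Yeast held at a steady low supply of glucose can pass together through repeating rounds of oxygen use. Textbook accounts divide a round into an oxidative phase with ribosome and amino acid synthesis, a reductive building phase with mitochondrial gene expression and cell division, and a reductive charging phase. In the charging phase cells build up storage carbohydrate and break down fatty acids in peroxisomes, which in yeast are the site of beta-oxidation. Cell division ends with mitotic exit and with enzymes that cut the septum from the daughter's side. The comparison asks which transcripts that stood high at position 2 had dropped 1 interval later and which persisted.

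Most of the transcripts that were high at position 2 did not drop by 2-fold at position 3, and neither did most genes. A gene was taken as high at position 2 if, in each cycle, its log2 value there was at least 1 above the mean of the 10 positions other than 2 and 3. Of 5656 genes, 238 met this. Of these, 17 (7.14%) were transient, which means called lower at an adjusted p under 0.05 and lower by 1 or more on the log2 scale. The same call was made for 0.725% of all genes. A transient gene had dropped by that much but need not have come down to its level at other positions. A further 182 (76.5%) held, meaning that the 95% interval of their difference lay above -1, against 90.5% of all genes. The other 39 (16.4%) were undecided between these. Of the 182 that held, 4 were called lower and 1 higher. The median difference was -0.37 over the 238 genes and -0.02 over all genes, and 213 of the 238 differences were below 0, against 52.8% of all genes. Without cycle 1 or without cycle 2, no gene was transient because limma made 0 calls at all (816 and 898 genes had an unadjusted p under 0.05). All 17 had differences of -1 or less in both fits. This was largely given in advance, as the 17 were chosen for such a difference on these arrays. Without cycle 3, 25 genes were transient, among them 16 of the 17.

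The position 2 arrays served both to choose these genes and to measure them, so the counts are a description and some drop at position 3 is built into the choice. Genes were therefore also chosen in a pair of cycles and measured in the cycle left out. This gave 269, 287 and 283 genes for cycles 1, 2 and 3, with median differences of -0.32, -0.33 and -0.28. Of them, 9.29%, 9.06% and 10.6% were lower by 2-fold or more, against 3.04%, 2.44% and 4.05% of all genes in those cycles. These genes were still chosen for a high at position 2, and 88.5%, 82.9% and 84.1% of them were also high in the cycle left out. Some drop beyond that of all genes therefore remains built into this choice too. The genes just outside the threshold were IRC15, YMR085W and MCO32, whose lowest excess over the cycles was 0.993, 0.993 and 0.998. Just inside were ERG9, YOL024W and OPI10, at 1.0, 1.002 and 1.007.

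**Figure D1:**
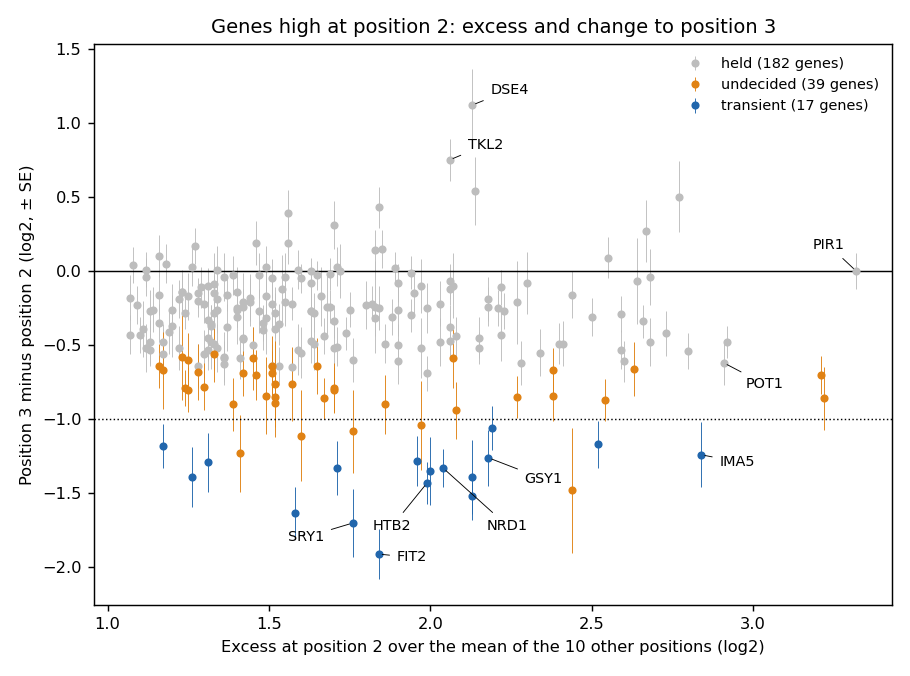
The 238 genes that were high at position 2, by their log2 excess over the mean of the 10 other positions (horizontal) and their log2 difference of position 3 minus position 2 with its SE (vertical); the dotted line marks -1. The 17 transient genes lie below the line, the 182 held genes lie mostly between 0 and -0.69, and PIR1, with the highest excess of 3.32, had a difference of 0.00.

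Of the 17 transient genes, the largest drop was in FIT2, a cell wall mannoprotein that helps to retain siderophore-bound iron. FIT2 read 4.17, 4.36 and 2.66 at position 2 in cycles 1, 2 and 3, and 1.19, 0.868 and 0.775 at position 3. Every position 3 array was below every position 2 array, and the difference was -1.91 ± 0.17 (SE, n = 3 pairs; limma, adjusted p = 0.0246). Its mean at position 1 was already 4.31, and this was its highest position. SRY1, which encodes a hydroxyaspartate dehydratase, read 3.75, 3.37 and 2.5 and then 0.747, 0.975 and 1.14. Its groups did not overlap, and the difference was -1.70 ± 0.23 (adjusted p = 0.0246).

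NRD1, an RNA-binding protein that ends transcription of short non-coding RNAs in yeast, was also transient. Its arrays read 12.6, 8.84 and 10.7 at position 2 and 4.72, 3.62 and 4.31 at position 3. The groups did not overlap, and the difference was -1.33 ± 0.13 (adjusted p = 0.0246). The mean was 3.18 at position 1, 4.22 at position 3 and 2.96 at position 4, so NRD1 was highest at position 2 and lower on both sides of it. Its mean at position 9 was 5.04 ± 2.43 (SD, n = 3).

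HTB2, a histone H2B gene, fell from 15.7, 13.9 and 12.1 to 4.99, 5.38 and 4.89. The position 3 arrays were close together and well below all position 2 arrays, with a difference of -1.43 ± 0.14 (adjusted p = 0.0246). HTB2 was highest at position 11, at 19.5 ± 1.5 (SD, n = 3), and was not at its peak at position 2. Its mean was 5.09 at position 3 and 0.622 at position 5, so it had dropped but not yet reached its low. SPO12, a nucleolar regulator of mitotic exit, fell from 5.49, 4.41 and 5.11 to 3.06, 2.14 and 2.02, a difference of -1.06 ± 0.15 (adjusted p = 0.026). By cycle the differences of SPO12 were -0.84, -1.03 and -1.32, and it was not transient without cycle 3.

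GSY1, the minor glycogen synthase, read 6.63, 7.59 and 10.3 at position 2 and 3.85, 3.02 and 3.17 at position 3. All position 3 arrays were lower, and the difference was -1.26 ± 0.19 (adjusted p = 0.029). GSY2, the major glycogen synthase, read 12.1, 11.4 and 13.2 and then 9.77, 11.4 and 13.9. Its groups overlapped, and the difference was -0.08 ± 0.13, with a 95% interval of -0.40 to 0.24. The difference between the paralogs was not tested.

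The remaining brighter transient genes were FMP10, COX23, YHR140W and YJR149W, with differences of -1.39, -1.18, -1.35 and -1.17. COX23 acts in the assembly of cytochrome c oxidase in the mitochondrial intermembrane space, and FMP10 is a mitochondrial protein. COX23 also was highest before position 2, at 3.57 at position 1. Another 7 transient genes were among the dimmest 25% of all genes. They were the isomaltase genes IMA1 (-1.29) and IMA5 (-1.24), the glucose-responsive repressor MIG2 (-1.39), the kinetochore gene NKP1 (-1.33), the phosphatase partner SAP4 (-1.28), SCEI (-1.63) and YNCC0005W (-1.52). YHR140W and MIG2 were not called with no mean-variance trend. Of the 17, all chosen for a high at position 2, 14 were highest of all positions there. The exceptions were FIT2, COX23 and HTB2.

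**Figure D2:**
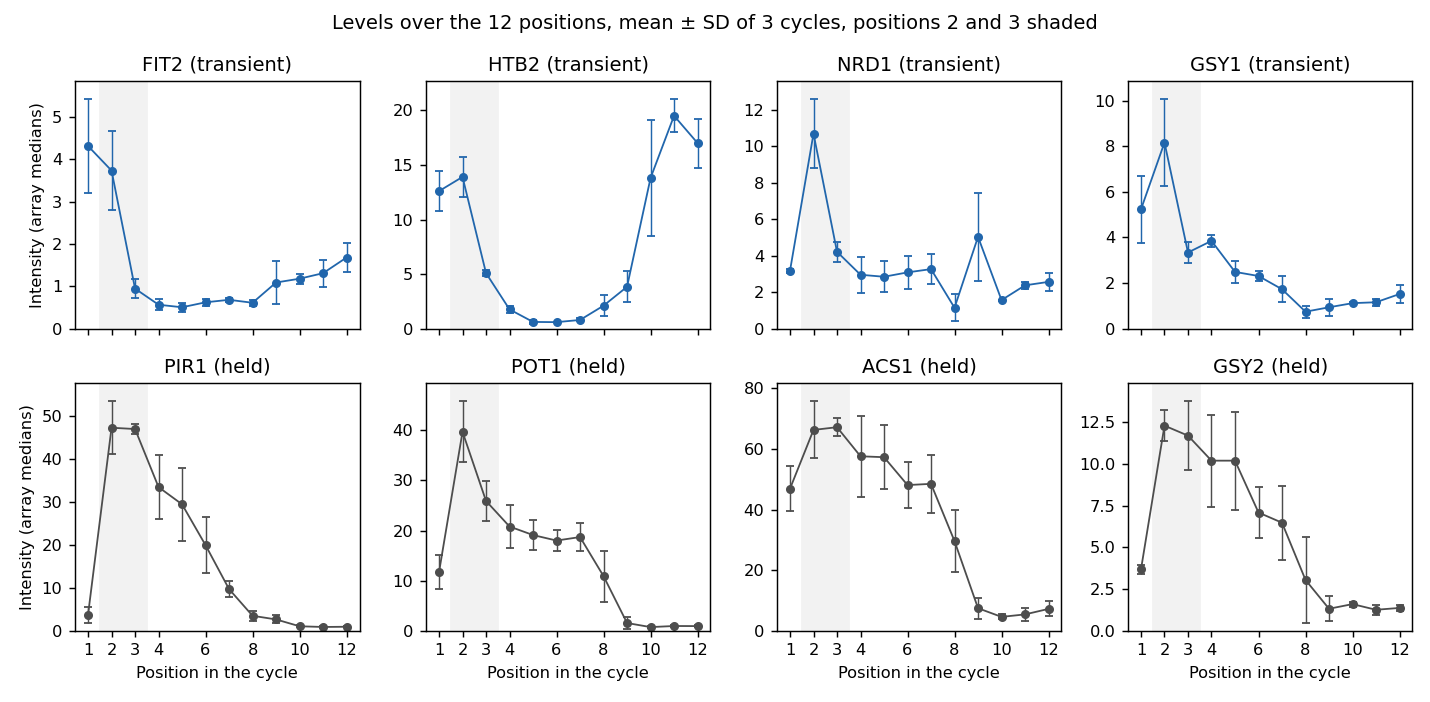
Mean intensity in multiples of the array median (vertical, from 0) over the 12 positions of the cycle (horizontal), with SD bars over 3 cycles, for 4 transient genes in the upper panels and 4 held genes in the lower panels; positions 2 and 3 are shaded. NRD1 stood at 3.18 at position 1, 4.22 at position 3 and 2.96 at position 4 around its peak, while ACS1 was still at 57.6 at position 4.

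Among the 182 held genes, PIR1 had the highest excess at position 2. PIR1 encodes a cell wall glycoprotein and read 41.0, 53.2 and 47.3 at position 2 and 47.9, 47.1 and 45.6 at position 3. The groups overlapped, the difference was 0.00 ± 0.12, and the 95% interval ran from -0.28 to 0.28. Its mean at position 1 was 3.72. AIM44, a bud neck protein, had a difference of -0.04 ± 0.19, and CTT1, the cytosolic catalase, -0.07 ± 0.29.

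The held group also included the peroxisomal fatty acid oxidation genes. Of 15 beta-oxidation genes measured, 14 were high at position 2. Of these 13 held, a share close to the 90.5% of all genes that met the same condition. All 15 differences were negative, with a list median of -0.28; 2 members were called lower, against 2.19% of all genes, and none higher. POT1, the 3-ketoacyl-CoA thiolase of beta-oxidation, read 36.2, 36.2 and 46.7 at position 2 and 23.2, 30.4 and 24.1 at position 3. Its groups did not overlap, and the difference of -0.62 ± 0.15 did not pass the test (adjusted p = 0.0707). POX1, the acyl-CoA oxidase, read 18.7, 20.3 and 20.8 and then 12.5, 16.5 and 12.9, a difference of -0.53 ± 0.13 (adjusted p = 0.0707). The dimmer probe sets of POX1 gave -0.44, -0.33 and 0.44. FOX2, the multifunctional enzyme between POX1 and POT1, was at -0.16 ± 0.16, and CTA1, the peroxisomal catalase, at -0.34 ± 0.11. SPS19, a reductase for unsaturated fatty acids, had the smallest difference of the list, -0.10 ± 0.18.

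FAA2 and TES1 were the beta-oxidation genes that passed the test. FAA2, which activates medium-chain fatty acids in the peroxisome, read 15.8, 13.3 and 14.9 and then 7.38, 8.73 and 7.93. Every position 3 array was below every position 2 array, and FAA2 fell by 0.87 ± 0.14 on the log2 scale (adjusted p = 0.0298), which left it undecided. TES1, the peroxisomal thioesterase, fell by 0.69 ± 0.12 (adjusted p = 0.0346) and held by its interval. Neither FAA2 nor TES1 was called with all 36 arrays in the fit or with no mean-variance trend. ANT1, the peroxisomal nucleotide carrier, was the only beta-oxidation gene not high at position 2.

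All 5 carnitine shuttle genes, which move acetyl groups between peroxisome, cytosol and mitochondrion, were high at position 2. All 5 also held, a condition that 90.5% of all genes met. Their median difference was -0.54, and at position 6 none was within 1 log2 of its position 2 level. The carrier CRC1 and the plasma membrane transporter AGP2 were called lower (40.0% of the list, against 2.19% of all genes). Their differences were -0.64 ± 0.13 (adjusted p = 0.0458) and -0.65 ± 0.13 (adjusted p = 0.0463). Neither was called with all 36 arrays or with no mean-variance trend, and AGP2 was not called under quantile or trimmed-mean scaling. CAT2, the main carnitine acetyltransferase, read 31.3, 31.7 and 33.6 and then 25.2, 19.2 and 22.4, a difference of -0.54 ± 0.12 that did not pass (adjusted p = 0.0602). YAT1, another acetyltransferase, read 32.8, 32.8 and 35.5 and then 33.9, 28.6 and 37.8. The groups of YAT1 overlapped, with a difference of -0.02 ± 0.11. Of 25 peroxins, which build peroxisomes, none was called, and the median was -0.09.

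Several genes for the use of acetate, ethanol and lactate were near their position 2 level. The acetate and ethanol list had a median of -0.05, with members from -0.82 (ADH1) to 0.43 (ALD5). ACS1, which makes acetyl-CoA from acetate, read 68.4, 74.5 and 56.0 at position 2 and 66.1, 64.8 and 70.7 at position 3. The groups overlapped, and the difference was 0.03 ± 0.13. ADH2, the alcohol dehydrogenase that consumes ethanol, was at 0.00 ± 0.09, and the lactate dehydrogenase CYB2 at 0.01 ± 0.13. Of 19 acetate and ethanol genes, 5 were high at position 2 and all 5 held, a condition that 90.5% of all genes met. ADH1, the fermentative alcohol dehydrogenase, was no member of the high group and was the only gene of this list that was called. It read 55.7, 54.2 and 51.0 and then 32.7, 28.7 and 29.7, and fell by 0.82 ± 0.10 (adjusted p = 0.0246).

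Of 10 trehalose genes, none was called, and the 5 that were high at position 2 all held, among them the synthase subunits TPS1 (-0.20 ± 0.11) and TPS2 (-0.21 ± 0.16). Of 13 glycogen genes, GSY1 alone was called, and 5 of the 6 that were high at position 2 held. The list medians were -0.28 and -0.32, and 90.5% of all genes met the condition for held.

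Of 39 genes of mitosis and cytokinesis, 14 were high at position 2. Of these, 12 held (a condition met by 90.5% of all genes), SPO12 was transient and 1 was undecided. The median over the list was -0.19. CHS2, the chitin synthase of the primary septum, read 8.57, 7.4 and 7.78 and then 6.36, 6.38 and 6.39. All position 3 arrays of CHS2 were lower, but the difference of -0.31 ± 0.13 did not pass (adjusted p = 0.227). CDC5, the polo kinase, was at -0.18 ± 0.16, and CDC20, an activator of the anaphase-promoting complex, at -0.53 ± 0.17.

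The held transcripts were followed further by their means at later positions. Of 182 held genes, 169 (92.9%) were less than 1 log2 below their position 2 level at position 4, 143 (78.6%) at position 5, 122 (67.0%) at position 6 and 92 (50.5%) at position 7. At position 8 the count was 14 (7.7%), and 80 of the 182 first dropped by 1 or more there. The 12 held genes of mitosis and cytokinesis were at a median of -0.80 at position 4 and -1.42 at position 5, where none was within 1 log2. All 5 held trehalose genes and all 5 held glycogen genes were within 1 log2 at position 6. Of 13 held beta-oxidation genes, 11 were within it at position 4, 8 at position 6 and 7 at position 7, and none at position 8. These counts are descriptions of means over 3 cycles, with no test.

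The undecided genes had a median difference of -0.79, and 12 of 39 were called lower. CIT3, a mitochondrial citrate and methylcitrate synthase, read 33.3, 33.0 and 28.9 and then 16.7, 22.1 and 19.9. Its groups did not overlap, and it fell by 0.70 ± 0.13 (adjusted p = 0.0405). CYC7, the cytochrome c isoform of low oxygen, fell by 0.85 ± 0.14 (adjusted p = 0.0325), and TSA2, a peroxiredoxin, by 0.80 ± 0.15 (adjusted p = 0.0373). The calls of CIT3 and CYC7 were lost with all 36 arrays, and those of CIT3 and TSA2 with no mean-variance trend. Of the 238 high genes, TKL2 alone was called higher at position 3. TKL2, a transketolase, read 11.2, 15.8 and 10.1 and then 20.4, 21.7 and 19.6, and rose by 0.75 ± 0.14 (adjusted p = 0.0388); its probe set is of a kind that may cross-hybridise, and it was not called with all 36 arrays, with no mean-variance trend or as the mean of all its probe sets.

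Over all 5656 genes, 124 (2.19%) were called lower at position 3 and 152 (2.69%) higher, together 4.88%. By 2-fold or more, 41 (0.725%) were lower and 74 (1.31%) higher. Of the 124 that fell, 33 belonged to the 238 genes high at position 2 among the 5656. The same position 2 arrays entered both choices, so some of this overlap is built in. Already at position 2, 89 (71.8%) of the 124 were below their position 1 level, against 52.0% of all genes. All called genes had the same sign in each cycle, and 4647 genes (82.2%) had a 95% interval within 2-fold either way.

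The counts depended on which cycles were used. Without cycle 1 or without cycle 2, limma made 0 calls, with 816 and 898 genes at an unadjusted p under 0.05 against 1259 with all cycles. Without cycle 3 it called 558 genes lower and 463 higher. Without the cycle as a block it called 223 lower and 244 higher. Across genes, the change from position 2 to 3 correlated at r = 0.589 between cycles 1 and 2, 0.361 between 1 and 3 and 0.324 between 2 and 3; genes are not independent replicates. Each position 2 array was most like a position 2 array of another cycle (r from 0.973 to 0.989). The position 3 arrays of cycles 2 and 3 were slightly closer to the position 4 array of cycle 1 (r = 0.983 and 0.985) than to other position 3 arrays. Of 11 reference genes, including ACT1 at -0.01 ± 0.11, none was called, and the bacterial spike controls averaged 0.06 higher at position 3. The 18S ribosomal RNA probe sets differed by 0.43, 0.07 and -0.57 in cycles 1, 2 and 3, and their part in the differences between cycles was not tested.

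**Figure D3:**
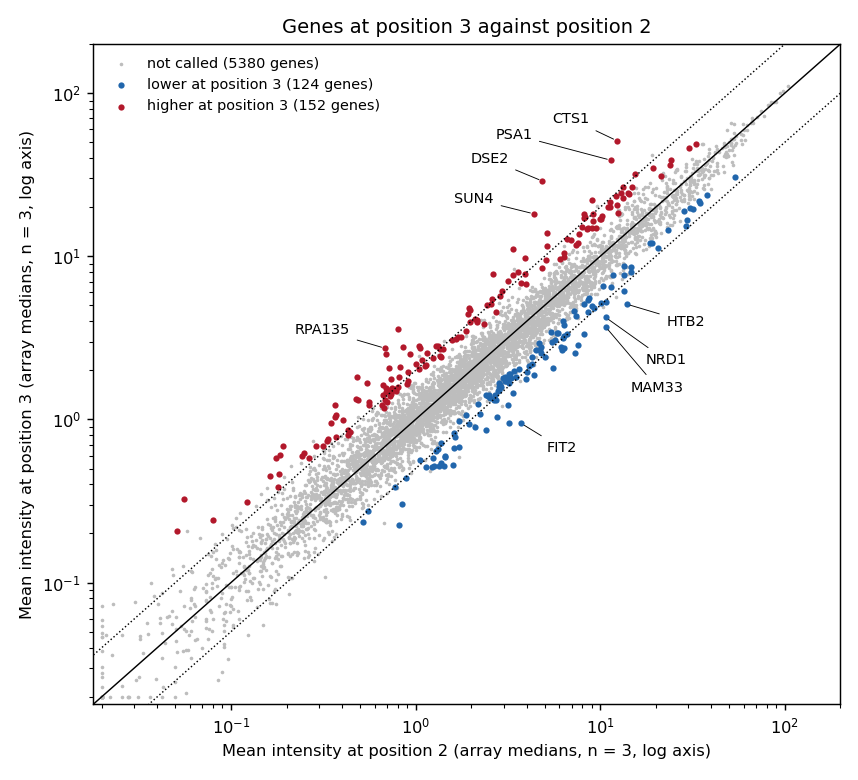
Mean intensity of each of 5656 genes at position 2 (horizontal) and position 3 (vertical), in multiples of the array median on log axes, n = 3 arrays each; means under 0.02 are drawn at 0.02, the solid line marks equality and the dotted lines a 2-fold difference. The 124 genes called lower are blue and the 152 called higher are red, and DSE2 and SUN4 stand farthest above the line among the labelled genes.

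The list with the most genes called lower was the mitochondrial ribosome, which makes the few proteins of the mitochondrial genome. Of 73 genes measured, 32 were called lower and none higher, against 2.19% of all genes called lower. All 73 differences were negative, with a median of -0.75 and cycle medians of -0.77, -0.71 and -0.65. None of these genes was high at position 2 by the rule, and 71 of 73 were already lower at position 2 than at position 1. The median drop from position 1 to 2 was -0.70, so the step to position 3 continued a decline of about the same size. MNP1, a large-subunit protein, read 6.93, 5.9 and 9.02 and then 2.57, 2.8 and 2.34, and fell by 1.47 ± 0.19 (adjusted p = 0.0246). MRP4, of the small subunit, read 3.05, 2.87 and 2.4 and then 0.719, 1.13 and 1.24. MRP4 fell by 1.41 ± 0.23 (adjusted p = 0.0297), and neither gene's groups overlapped. With all 36 arrays in the fit 22 of the 73 were called lower, with no mean-variance trend 17, and under quantile scaling 20.

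Some other mitochondrial genes were also called lower. MAM33, a matrix protein needed for mitochondrial translation, read 12.8, 11.5 and 7.91 and then 4.29, 3.31 and 3.46, and fell by 1.51 ± 0.16 (adjusted p = 0.0246). Its mean had been 22.3 at position 1. PET117, a cytochrome c oxidase assembly factor, fell by 1.34 ± 0.23 (adjusted p = 0.0343) and was not called with all 36 arrays. Of 36 import and chaperone genes of the mitochondrion, 4 were called lower (11.1%, against 2.19% of all genes), with a list median of -0.41. Under quantile scaling 2 were called, and with no mean-variance trend 1. TOM40, the pore of the outer membrane, read 13.3, 11.2 and 9.75 and then 7.52, 5.96 and 5.88. TOM40 fell by 0.81 ± 0.12 (adjusted p = 0.029).

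In the respiratory chain and ATP synthase, which those systems serve, the differences were smaller. Of 23 respiratory chain genes 2 were called lower (8.7%, against 2.19% of all genes) and 21 differences were negative, with a median of -0.14. Of 17 ATP synthase genes none was called, with a median of -0.15. SDH1, the flavoprotein of succinate dehydrogenase, fell by 0.62 ± 0.12 (adjusted p = 0.0453), while SDH2, its iron-sulfur partner, was at 0.01 ± 0.10. Of 16 tricarboxylic acid cycle genes 3 were called lower, CIT3, LSC2 and SDH1 (18.8%, against 2.19% of all genes), with a median of -0.34. With all 36 arrays none of the respiratory chain or tricarboxylic acid cycle genes was called, and with no mean-variance trend none of the latter.

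Among the other genes that fell was SUC2, the secreted invertase. SUC2 read 6.29, 4.95 and 5.42 and then 2.37, 2.74 and 1.09, a difference of -1.50 ± 0.27 (adjusted p = 0.0344). That probe set may cross-hybridise, and a second probe set gave -1.39. The glycolytic genes PDC1, CDC19 and EMI2 were called lower of 22 measured (13.6%, against 2.19% of all genes). PDC1, the main pyruvate decarboxylase, fell by 0.81 ± 0.14 (adjusted p = 0.0343). With no mean-variance trend neither SUC2 nor any of these 3 was called. MF(ALPHA)1, an alpha-factor gene, fell by 1.24 ± 0.19 (adjusted p = 0.0286).

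**Figure D4:**
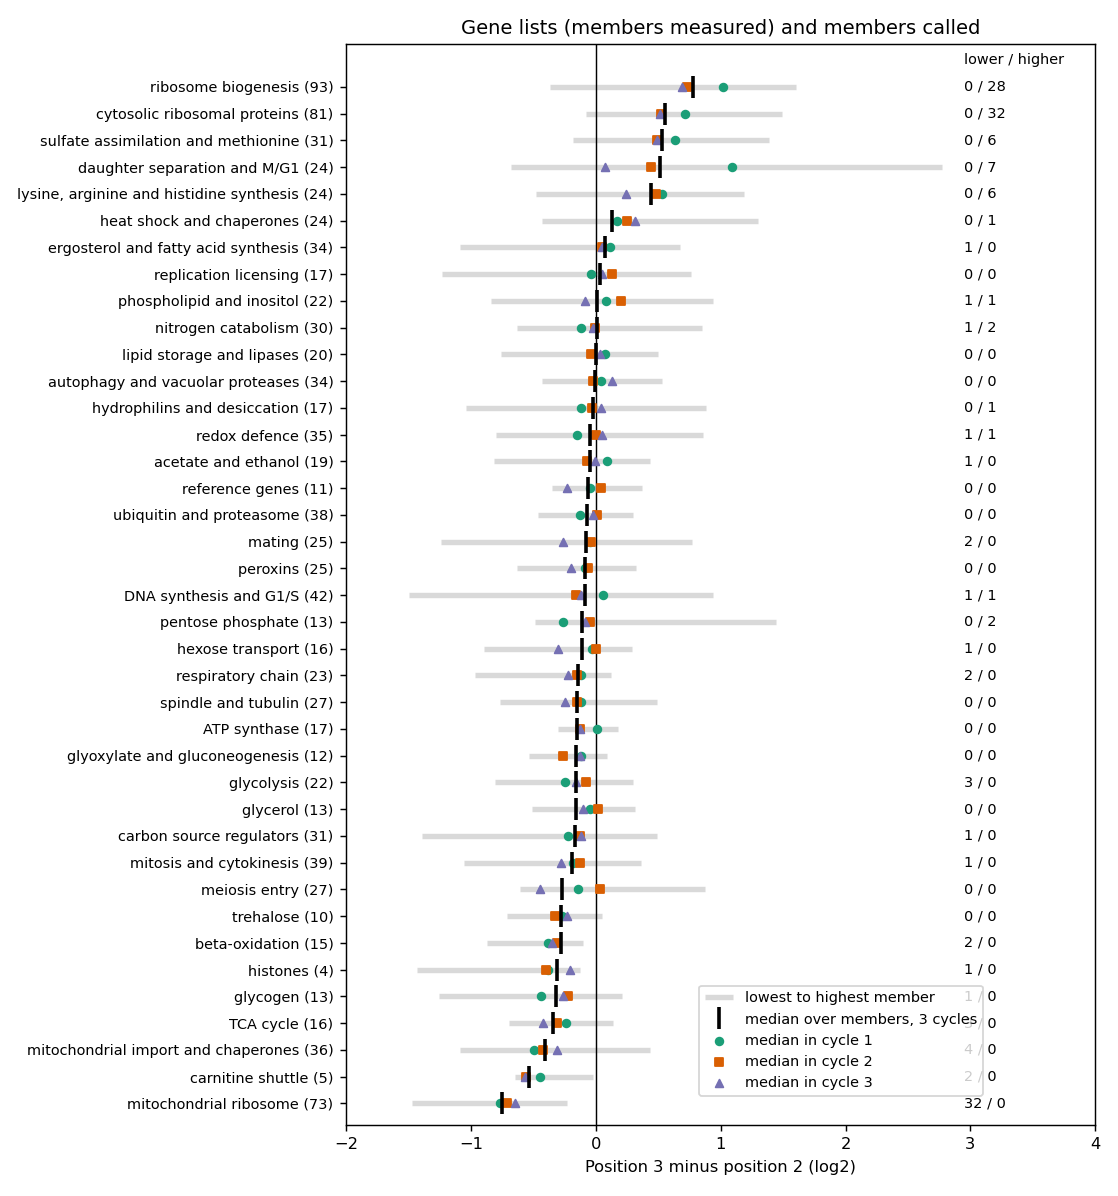
Log2 difference of position 3 minus position 2 for 39 gene lists, ordered by their median: grey bars span the members, black ticks mark the median over members, coloured points the medians in cycles 1, 2 and 3, and the numbers at the right count members called lower and higher. The mitochondrial ribosome lies lowest at -0.75 with 32 called lower, and ribosome biogenesis highest at 0.78 with 28 called higher; the points of the daughter separation list spread from 0.07 in cycle 3 to 1.09 in cycle 1.

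The 3 largest rises among genes above the dimmest 25% were in genes of daughter cell separation, which are switched on in the daughter nucleus at the end of mitosis. DSE2, a daughter-specific cell wall protein, read 2.14, 3.85 and 8.59 at position 2 and 24.6, 34.6 and 27.5 at position 3. All position 3 arrays were above all position 2 arrays, and DSE2 rose by 2.77 ± 0.33 (adjusted p = 0.0246), or 6.84-fold. CTS1, the chitinase that cuts the septum, read 8.43, 11.4 and 17.1 and then 45.6, 52.5 and 55.1. CTS1 rose by 2.10 ± 0.16 (adjusted p = 0.0246), or 4.30-fold, without overlap. SUN4, a septum-related cell wall protein, read 1.71, 3.24 and 8.17 and then 15.8, 17.1 and 21.8, and rose by 2.32 ± 0.31 (adjusted p = 0.0246). PRY3, a cell wall protein, rose by 1.93 ± 0.32 (adjusted p = 0.0323).

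Of the 24 genes listed for daughter separation and the M/G1 boundary, 7 were called higher and none lower, against 2.69% of all genes called higher. Beside the 4 genes above, AMN1, DSE1 and NIS1 were called. The list median was 0.51, and 15 of 24 were highest of all positions at position 3. The rise differed between cycles, with list medians of 1.09, 0.44 and 0.07 in cycles 1, 2 and 3. All 7 called genes were lowest in cycle 1 at position 2, as were 31.7% of all genes, and 6 of the 7 were highest there in cycle 3, as were 47.0% of all genes. Another 8 genes of the list were high at position 2 and held, a condition that 90.5% of all genes met. Among them were EGT2 (0.50 ± 0.24), the glucanase DSE4 (1.12 ± 0.24, adjusted p = 0.0509) and the inhibitor of S-phase kinase SIC1 (0.39 ± 0.16).

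**Figure D5:**
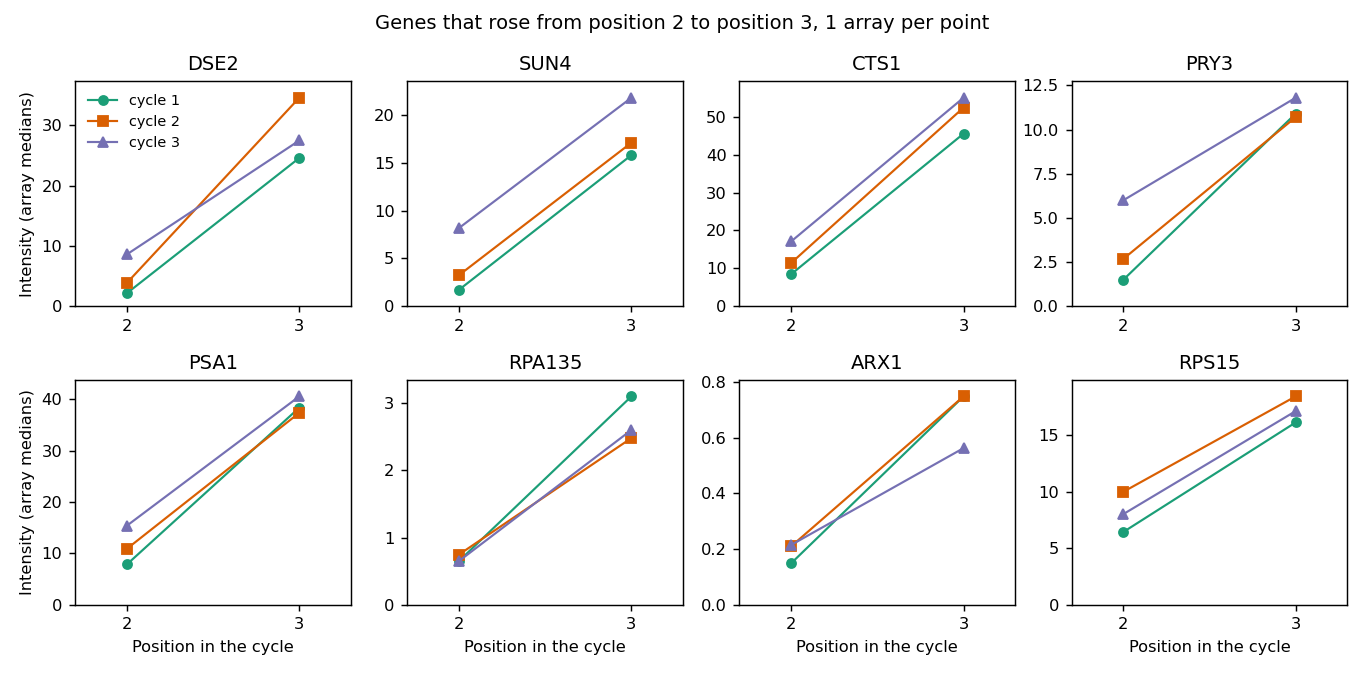
Intensity in multiples of the array median (vertical, from 0) at positions 2 and 3 (horizontal) for 8 genes that rose, with 1 line per cycle and 1 array per point. In DSE2, SUN4, CTS1 and PRY3 the position 2 arrays run from a low in cycle 1 to a high in cycle 3, as 2.14 and 8.59 for DSE2, while their position 3 arrays lie closer together in proportion.

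Genes of ribosome biogenesis and of the ribosome itself were among those called higher. Of 93 ribosome biogenesis genes, 28 were called higher and none lower, against 2.69% of all genes called higher, with a median of 0.78 and cycle medians of 1.02, 0.73 and 0.69. Of 81 cytosolic ribosomal protein genes, 32 were called higher and none lower, with a median of 0.55. Position 2 was the lowest of all 12 positions for 81 of the 93 and for 75 of the 81, against 14.4% of all genes. ARX1, a shuttling factor for the large subunit, read 0.149, 0.21 and 0.215 and then 0.749, 0.749 and 0.563. It rose by 1.60 ± 0.22 (adjusted p = 0.0246) without overlap, and its highest mean was 7.54 ± 5.78 (SD, n = 3) at position 8. RPS15, a small-subunit protein, read 6.42, 9.97 and 8.0 and then 16.1, 18.4 and 17.1, and rose by 1.10 ± 0.14 (adjusted p = 0.0246), against 42.0 ± 9.28 (SD, n = 3) at position 9. For 30 of the ribosomal protein genes the probe set was of a kind that may cross-hybridise, so near-identical paralogs may share signal. With all 36 arrays in the fit, 2 of the 93 and 22 of the 81 were called higher, at the same medians, and ARX1 was not. With no mean-variance trend 12 of the 81 were called.

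RPA135, the second-largest subunit of RNA polymerase I, which transcribes ribosomal RNA, read 0.651, 0.747 and 0.651 and then 3.1, 2.48 and 2.6. The groups were far apart, and RPA135 rose by 1.92 ± 0.17 (adjusted p = 0.0246). RBG1, a ribosome-associated GTPase, rose by 1.81 ± 0.19, and SAS10, of the small-subunit processome, by 1.67 ± 0.20 (adjusted p = 0.0246 for both). PSA1, which makes GDP-mannose for cell wall glycoproteins, read 7.86, 10.9 and 15.4 and then 38.4, 37.4 and 40.6, and rose by 1.82 ± 0.18 (adjusted p = 0.0246). URA7, a CTP synthase, rose by 1.65 ± 0.23 (adjusted p = 0.0246) but was not called with all 36 arrays. Over the 152 genes called higher, 125 (82.2%) were lowest at position 2, against 14.4% of all genes. A call of higher takes genes that were lower at position 2 than at position 3, so part of this share is built into the choice.

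Some genes of amino acid synthesis were called higher, against 2.69% of all genes. Of 24 lysine, arginine and histidine genes 6 were called higher (LYS2, LYS20, ARG8, HIS1, HIS4 and HIS7), with a median of 0.44, and 3 with all 36 arrays. LYS2, of lysine synthesis, read 1.71, 2.28 and 1.8 and then 4.05, 4.73 and 4.57, and rose by 1.19 ± 0.14 (adjusted p = 0.0246). Of 31 sulfate and methionine genes 6 were called higher, with a median of 0.53, and 4 with no mean-variance trend. SUL2, a sulfate permease, read 0.939, 0.994 and 1.18 and then 3.19, 2.61 and 2.61, and rose by 1.39 ± 0.17 (adjusted p = 0.0246). GCN4, the activator of amino acid synthesis genes, was at 0.02 ± 0.10. GLN1, glutamine synthetase, read 16.9, 21.1 and 19.8 and then 33.1, 35.2 and 35.8, and rose by 0.85 ± 0.11 (adjusted p = 0.0246).

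Most genes called higher had their highest mean later in the cycle. Of the 152, 10 were highest at position 3 and none at position 1 or 2. SSA3 and YRO2 were among those with a later high. SSA3, a heat-inducible Hsp70, read 10.6, 9.5 and 6.91 and then 20.0, 22.5 and 23.5, and rose by 1.30 ± 0.18 (adjusted p = 0.0246). It had been at 0.929 at position 1 and reached 31.6 at position 4. YRO2, a plasma membrane protein, read 2.06, 3.81 and 2.0 and then 7.15, 7.63 and 8.49, rose by 1.61 ± 0.22 (adjusted p = 0.0246) and stood at 20.7 at position 4. SSA3 was the only call among 24 heat shock and chaperone genes, and HSP104 was at -0.01 ± 0.12.

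Several lists gave no or few calls. Of 34 autophagy and vacuolar protease genes, 38 ubiquitin and proteasome genes, 27 spindle and tubulin genes and 17 replication licensing genes, none was called. Of 42 genes of DNA synthesis and the G1/S boundary, RFC5 was called higher and PCL1 lower; RFC5 was not called with all 36 arrays or with no mean-variance trend. Of 16 hexose transport genes HXT1 alone was called, though not with all 36 arrays, and HXT7 was at -0.01 ± 0.10. A p that misses the threshold does not show that a gene stayed the same, and the median 95% interval reached 0.42 to either side.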

How the data were processed

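The values analysed are probe-set intensities as the authors deposited them, not logged. Tested on the values, every array has a median of 1, so each intensity is a multiple of its array's median; software and probe summary are not given in the sources used here. Depth does not apply to arrays, and their number limits the precision. A single gene symbol was available for 6504 of 9335 probe sets, several symbols for 328 and none for 2443, and 60 were controls; names follow the R64 gene table. Each of 5656 genes was represented by its brightest probe set, as log2(value + 0.0516), the pseudocount being the 10th percentile of positive values. Differences on this scale are understated for dim genes.

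Position 3 was compared with position 2 on 6 arrays with limma 3.58.1 (R 4.3.3), with the cycle as a block and the variance modelled on mean expression, and p-values were adjusted over all genes by Benjamini-Hochberg and called at 0.05. Summaries used Python 3.11.15 (pandas 2.3.3, numpy 2.4.6), and figures matplotlib 3.10.9. The pairs come from the labels, which give each array its cycle; deviations from the group means correlated at 0.001, 0.117 and -0.050 between arrays of cycles 1, 2 and 3. On simulated data of 5656 genes, this comparison recovered 33% of genes changed by 1 log2 and 83% of those changed by 2 log2, with 2 false calls. A 2-fold change was thus often missed there. The simulation drew its noise from each gene's spread over the 3 pairs and gave 118 calls, against 276 in the data. Its shares therefore need not hold for the data.

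The genes and lists were chosen with earlier results of these data known. Among genes above the dimmest 25%, the rule for named genes took the 12 largest falls and 12 largest rises, the 10 transient and 10 held genes of highest excess, and in each of 39 lists the 2 called members with the largest difference and the member nearest 0. The text gives part of these; other genes named were chosen after their values were seen. Alternatives covered the block, all 36 arrays, each cycle left out, scaling, pseudocount, dim genes, probe sets, the variance model and the choice of position 2 high genes. No sequences were used.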

Additional observations from a re-analysis of the deposited data

How the results depend on the processing

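All 276 called genes kept their sign in each of 12 alternative fits in which they were tested, but this was largely given in advance. Every called gene had the same sign in each cycle, so leaving out a cycle could not reverse it. Changing the block, the arrays in the fit or the variance model left the differences themselves as they were. The numbers called moved, and the cause was not tested. Without the replicate block 223 genes were called lower and 244 higher, including 119 of the 124 and 150 of the 152. With all 36 arrays and the block, 80 were called lower and 71 higher, 35 of them higher by 2-fold or more. Leaving out 1 cycle in turn, the genes called ranged from 0 to 558 lower and from 0 to 463 higher, from 0 to 89 and 0 to 113 by 2-fold or more, and the transient genes from 0 to 25; the counts of 0 came without cycle 1 or cycle 2. The fits with a cycle left out rest on 4 arrays. Without the mean-variance trend 59 genes were called lower, and without the dimmest 25% of genes 10 were transient, as fewer genes were tested. The genes that held numbered 128 to 219 under these fits. With the excess taken over positions 7 to 12, 341 of 411 genes held; with an excess of at least 2, 27 of 35 held and 2 were transient. Quantile and trimmed-mean scaling, the other pseudocounts and the mean of all probe sets kept each of these counts over all genes within 1.5 times, but under quantile scaling 20 in place of 32 mitochondrial ribosome genes were called. None of the called genes among the 106 named genes changed sign. The sign of the 48 that were not called could depend on the cycles used, as for PIR1, at 0.22, -0.18 and -0.05 in cycles 1, 2 and 3. Of the 58 named genes that were called, 20 lost the call with all 36 arrays and 17 without the mean-variance trend. Under quantile and trimmed-mean scaling 5 and 3 lost it, and all 58 did without cycle 1 or without cycle 2. Of 33 second probe sets of called genes 32 had the same sign, the exception being a nearly dark probe set of SUC2. The sizes could differ, as for RPA190, at 1.37 on its brightest probe set and from 0.01 to 0.79 on the others.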

Other observations

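The 6 gene groups below were put together after the values had been seen, so their counts support nothing and are given as values only. Over all genes, 2.19% were called lower and 2.69% higher. Of 29 genes for the assembly of cytochrome c oxidase, the last complex of the respiratory chain, 11 were called lower at position 3 and none higher, with a median of -0.44; 25 differences were negative and 4 positive. With all 36 arrays 4 were called. COX17, a copper chaperone of the intermembrane space, read 6.47, 5.91 and 5.91 at position 2 and 2.57, 2.68 and 3.12 at position 3, a difference of -1.12 ± 0.15. COA3, which regulates translation of the first oxidase subunit, read 15.1, 10.4 and 15.0 and then 6.31, 4.58 and 7.39, a difference of -1.14 ± 0.13. Neither gene's groups overlapped. All 14 mitochondrial tRNA synthetase genes had negative differences, with a median of -0.69, and MSF1 and MST1 were called lower, but none with all 36 arrays.

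Of 10 RNA polymerase I genes, 9 differences were positive, with a median of 0.96, and RPA135, RPA190, RPA49, RPA43 and RPA34 were called higher. With all 36 arrays 2 were called. RPA190, the largest subunit, read 0.929, 0.913 and 0.959 and then 2.21, 2.36 and 2.99, a difference of 1.37 ± 0.16. Its dimmer probe sets gave smaller differences, of 0.27, 0.79, 0.13, 0.01, 0.45 and 0.04. Of 11 RNA polymerase III genes none was called, with a median of 0.35. Of 28 genes of the iron regulon, FIT2 alone was called, while FIT3, a related cell wall mannoprotein, read 33.0, 34.1 and 30.1 and then 33.1, 25.1 and 25.1. The groups of FIT3 overlapped, with a difference of -0.24 ± 0.13. Of 7 genes for the use of maltose, isomaltose and sucrose, SUC2, IMA1, IMA5 and MAL33 were called lower, with a list median of -0.67; 2 were called with no mean-variance trend.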
